A study of Homo sapiens with 6 samples.

Results

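The replication-dependent histone genes were followed in HCT116, a line from a human colorectal carcinoma, with an altered eIF6 or with the wild-type protein. Members were the rows of the expected count table named H1-1 to H1-5, or named as numbered genes of the H2AC, H2BC, H3C and H4C families. They numbered 65 of 59251 genes, with 5 of class H1, 16 of H2A, 17 of H2B, 13 of H3 and 14 of H4. The MUT group held 3 libraries of cells homozygous for the N106S substitution in eIF6, made by CRISPR/Cas9 editing and kept as clones. The WT group held 3 libraries of HCT116 cells labelled wild type, grown in the same medium with serum and antibiotics, with no further agent named in either group. The labels do not say how many clones were used or whether the replicates were separate cultures. The p-values thus reflect the spread among these libraries alone, part of which may be technical. The substitution and other differences of the edited clones from the WT cells cannot be told apart here. eIF6 binds the large ribosomal subunit and blocks its joining with the small subunit. The study concerns the role of eIF6 in ribosome pools and mitotic exit.

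Replication-dependent histone genes supply the histones that package new DNA, and their mRNAs accumulate in S phase. H2A, H2B, H3 and H4 form the nucleosome core, and H1 binds the linker DNA between nucleosomes. The mRNAs lack a poly(A) tail and end just past a conserved stem-loop, which the stem-loop binding protein SLBP recognises during processing, translation and decay. When DNA synthesis stops, these mRNAs are degraded, with the exonuclease ERI1 and the helicase UPF1 taking part. The genes lie in clusters, lack introns in their usual form and exist in many copies that encode the same or nearly the same protein.

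The stem-loop is shown first because it is the element that sets these mRNAs apart. It was searched for in GENCODE v29 transcripts and found in 28 of the 65 members. Most of the others have transcript models that stop at the coding sequence, since 33 members had a model that ran past it. In the following sites, read 5′ to 3′ along the mRNA, capitals mark the 16-base stem-loop.
H2BC13: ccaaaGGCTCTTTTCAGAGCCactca
H2BC5: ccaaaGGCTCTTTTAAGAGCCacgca
H2AC18: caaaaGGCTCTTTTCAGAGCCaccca
H3C10: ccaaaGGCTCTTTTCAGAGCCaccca
H4C8: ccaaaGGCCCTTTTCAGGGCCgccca
H4C14: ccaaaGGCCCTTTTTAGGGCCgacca
One form of the stem-loop, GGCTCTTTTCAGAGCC, was held by 5 H2A, 7 H2B and 3 H3 members. The H4 members held another stem, with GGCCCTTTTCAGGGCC in 4 and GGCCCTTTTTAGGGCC in 3. The 5 bases before the stem were the same in 5 of the 6 sites printed. H2BC13 and H4C8 are shown because they had the smallest and second smallest adjusted p, and H2AC18 because it had the most RNA.

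Promoter windows, from 250 bases before to 50 bases after the RefSeq start (GRCh38.p14), were at hand for 60 of the 65 members. Examples are printed because the 5 classes, which all had medians below 0 in MUT over WT, differ in the letters of their promoters. Capitals mark exact matches, on either strand, to the octamer ATTTGCAT that POU2F1 binds, to the NF-Y motif CCAAT, to the TATA box as TATAAA, to the H1 promoter element as AAACACA and to the H4 promoter element as GGTCCG. None of these motifs contains another. H2BC13 is at chr6:27807880-27808179 on the minus strand, H4C8 at chr6:26285485-26285784 on the minus strand, H1-4 at chr6:26156079-26156378 on the plus strand and H2BC9 at chr6:26251364-26251663 on the plus strand.
H2BC13: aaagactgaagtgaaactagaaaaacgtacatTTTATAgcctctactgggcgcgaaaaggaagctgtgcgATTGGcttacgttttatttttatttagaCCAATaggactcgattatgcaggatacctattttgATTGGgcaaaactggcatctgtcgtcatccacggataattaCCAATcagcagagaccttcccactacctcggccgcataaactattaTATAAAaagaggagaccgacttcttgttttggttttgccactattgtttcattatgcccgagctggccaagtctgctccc
H4C8: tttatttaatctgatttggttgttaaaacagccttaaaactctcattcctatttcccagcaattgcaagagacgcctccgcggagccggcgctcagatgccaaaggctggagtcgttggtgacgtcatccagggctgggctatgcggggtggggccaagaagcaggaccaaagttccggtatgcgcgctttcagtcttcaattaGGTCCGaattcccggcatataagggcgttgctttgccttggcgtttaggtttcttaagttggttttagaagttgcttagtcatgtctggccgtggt
H1-4: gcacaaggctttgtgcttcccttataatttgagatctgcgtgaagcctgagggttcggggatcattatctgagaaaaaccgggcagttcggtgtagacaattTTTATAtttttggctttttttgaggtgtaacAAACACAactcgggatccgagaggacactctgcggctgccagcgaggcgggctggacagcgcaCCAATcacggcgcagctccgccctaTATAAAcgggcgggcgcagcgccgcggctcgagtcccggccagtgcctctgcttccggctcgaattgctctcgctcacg
H2BC9: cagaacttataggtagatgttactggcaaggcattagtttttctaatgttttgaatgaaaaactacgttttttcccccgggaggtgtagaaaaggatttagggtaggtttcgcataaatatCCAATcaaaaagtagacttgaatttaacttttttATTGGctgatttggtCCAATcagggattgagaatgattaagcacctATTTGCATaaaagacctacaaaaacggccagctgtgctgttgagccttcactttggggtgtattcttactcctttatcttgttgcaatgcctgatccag
The octamer was found in 11 of 15 H2A and 14 of 17 H2B promoters, in 1 of 11 H3 promoters and in no H1 or H4 promoter, against 1.77% of all 35116 promoters of this length. CCAAT was found in each matched promoter of H1, H2A, H2B and H3 and in 3 of 12 H4 promoters, against 34.6% of all. AAACACA was found in 5 of 5 H1 promoters, against 5.64% of all, and GGTCCG in 11 of 12 H4 promoters, against 11.3% of all. H2BC9, printed for contrast, holds the octamer yet averaged 0.102 TPM, while H2BC13 has no exact octamer in its window and averaged 38.1 TPM. A match is a match of letters and was not tested as a site of binding.

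Of the 65 members, 51 passed the filter on low counts, among 14808 genes tested. Libraries held 53986494 to 87656970 counts. MUT replicate 2 stood apart, with 3.91% of counts from nuclear ribosomal RNA genes. WT replicate 1 followed at 1.16%, and the other 4 libraries had 0.0891% to 0.234%. Abundant noncoding RNAs (RN7SL, RN7SK, RPPH1 and RMRP genes) took 86.5% of TPM in MUT replicate 2 and 90.1% to 93.8% in the other libraries. Counts outside these RNAs were 21984081 of 58935201 in MUT replicate 2 and 10252501 of 63951768 in WT replicate 3. Library sizes and TPM totals include these RNAs. The scaling factors by TMM, which sets library sizes so that most genes do not differ, ran from 0.676 to 1.68, with MUT replicate 2 the highest. EIF6 was measured at 36.7, 30.7 and 35.7 CPM (counts scaled to the library) in MUT libraries, against 43.3, 47.9 and 47.4 CPM in WT libraries, and the edit changes an amino acid, so this level does not check the genotype. Of 10 epithelial and colon markers, KRT8, KRT18 and KRT19 were at 113.7 CPM or above in every library, EPCAM, CDX2, CLDN4 and CDH1 passed the filter on low counts at 14.8 CPM or below, and LGALS4, VIL1 and GPA33 were at 0.0616 CPM or below. CDX2, a colon transcription factor, had 3.09, 2.33 and 3.72 CPM in MUT libraries, against 3.26, 3.18 and 3.40 CPM in WT libraries. CLDN4, a tight junction protein, was the marker that edgeR called, with 7.68, 5.85 and 7.32 CPM in MUT libraries, against 14.4, 10.7 and 14.8 CPM in WT libraries (-0.94, adjusted p = 0.0284). Summed markers of fibroblasts, leukocytes and endothelium reached at most 3.12, 1.46 and 0.0616 CPM.

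The members fell into 2 sets by level, in a split made after the levels were seen and by the mean of all 6 libraries. Levels between genes are given as TPM, which allows for transcript length. The upper set of 42 genes averaged 29.5 TPM (H2BC21) to 759.7 TPM (H2AC18), and the lower set of 23 genes at most 12.1 TPM (H3C14), followed by H3C6 with 3.46 TPM. The upper set held 2 H1, 12 H2A, 11 H2B, 7 H3 and 10 H4 genes. The lower set made up 0.184% of all histone TPM, and H4C6 and H4C7 had no count in any library. H2AC18 and H4C12, the next at 516.8 TPM, together made up 12.1% of histone TPM.

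On chromosome 6 (GRCh38), 54 members lie between positions 25726063 and 27893891, and on chromosome 1 another 11 lie between 149782689 and 149887965. Levels differed sharply between neighbours. From H2BC8 to H2BC10 (chromosome 6, 26216200 to 26273412) there were 10 members in a row at 3.46 TPM or below, over 57.2 kb. Their neighbours on either side were H4C5 with 150.8 TPM and H4C8 with 48.6 TPM. A shorter run of 4 low members reached from H2AC16 to H4C13 (27865317 to 27873534, 8.22 kb), with at most 0.178 TPM, next to H2BC15 and H3C12 at 77.0 and 207.7 TPM. The linker genes H1-2 and H1-4 averaged 225.2 and 163.1 TPM, while H1-1, H1-3 and H1-5 were at 0.178 TPM or below.

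**Figure D1:**
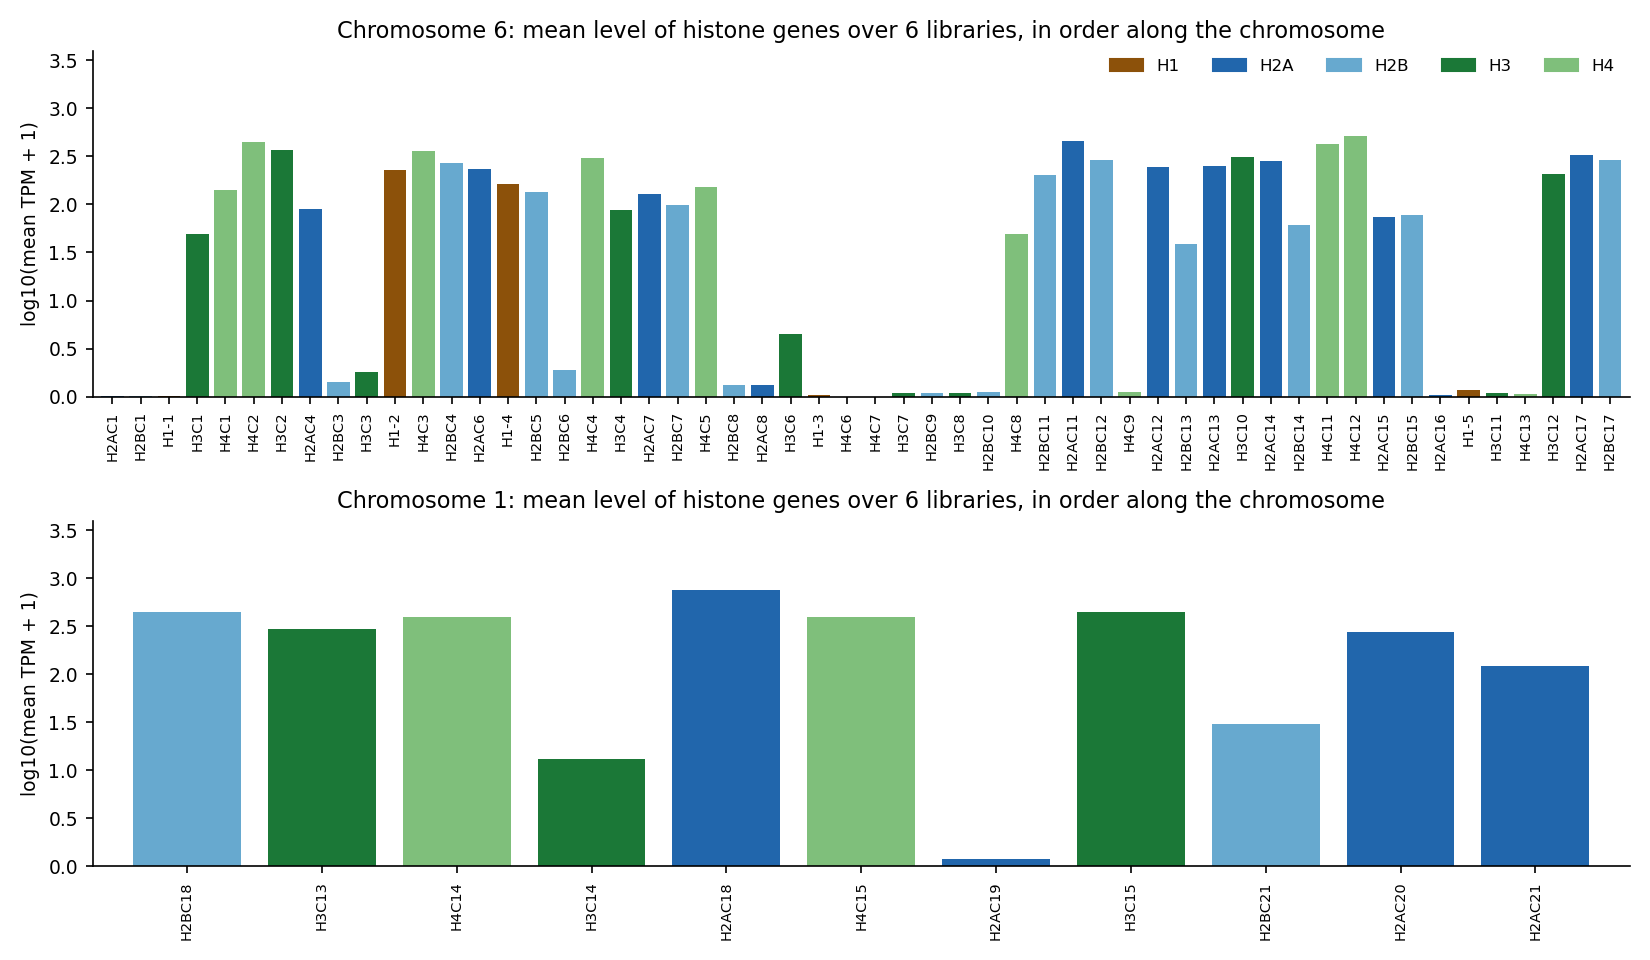
Bars give the mean TPM of each member over the 6 libraries on a log10(TPM + 1) axis, in order along chromosome 6 (top) and chromosome 1 (bottom), coloured by histone class. A run of 10 genes from H2BC8 to H2BC10 stands near 0 between H4C5 at 150.8 TPM and H4C8 at 48.6 TPM.

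Summed histone RNA was lower in MUT than in WT libraries under TMM scaling, and so was the mean of each of the 5 classes. On the TPM scale the groups overlapped, as given further on. By TMM-scaled CPM, the members summed to 16420, 7749.6 and 12064 CPM in MUT libraries, against 21770, 17477 and 23215 CPM in WT libraries. The groups did not overlap, but MUT replicate 1 lay close to WT replicate 2, and MUT replicate 2 was far below every other library. The means were 12078 ± 4335 CPM in MUT and 20821 ± 2985 CPM in WT (SD, n = 3 each), a log2 ratio of -0.79, or -0.53 without MUT replicate 2. In bulk RNA, fewer cells in S phase and less histone RNA per cell cannot be told apart.

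Members were summed per class, so that the division of reads among members of the same class does not matter. Reads shared with genes outside the class, as where annotated spans overlap, are not covered by this. H1 stood at 855, 606 and 768 CPM in MUT libraries, against 1250.3, 1204 and 1141 CPM in WT libraries. H2B stood at 3199, 1506 and 2043 CPM in MUT libraries, against 4609, 3554 and 4546 CPM in WT libraries. Neither class overlapped between the groups. H2A stood at 5391, 2508 and 4035 CPM in MUT libraries, against 6696, 5640.4 and 7711 CPM in WT libraries, and H4 at 3905, 1759 and 2872 CPM in MUT libraries, against 5477, 4113 and 5598 CPM in WT libraries. These classes also did not overlap. H3 did, with 3069, 1369 and 2345 CPM in MUT libraries, against 3738, 2966 and 4219 CPM in WT libraries. Fitted with all other genes, the class sums had log2 fold changes, MUT over WT, of -0.69 (SE 0.22) for H1, -0.75 (SE 0.35) for H2A, -0.92 (SE 0.33) for H2B, -0.69 (SE 0.34) for H3 and -0.83 (SE 0.35) for H4. Without MUT replicate 2 they were -0.54 (SE 0.23), -0.48 (SE 0.27), -0.67 (SE 0.28), -0.41 (SE 0.26) and -0.56 (SE 0.27) in the same order. Differences between the classes were not tested, and the ranges of 1 SE around the values overlapped for all 5 classes.

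**Figure D2:**
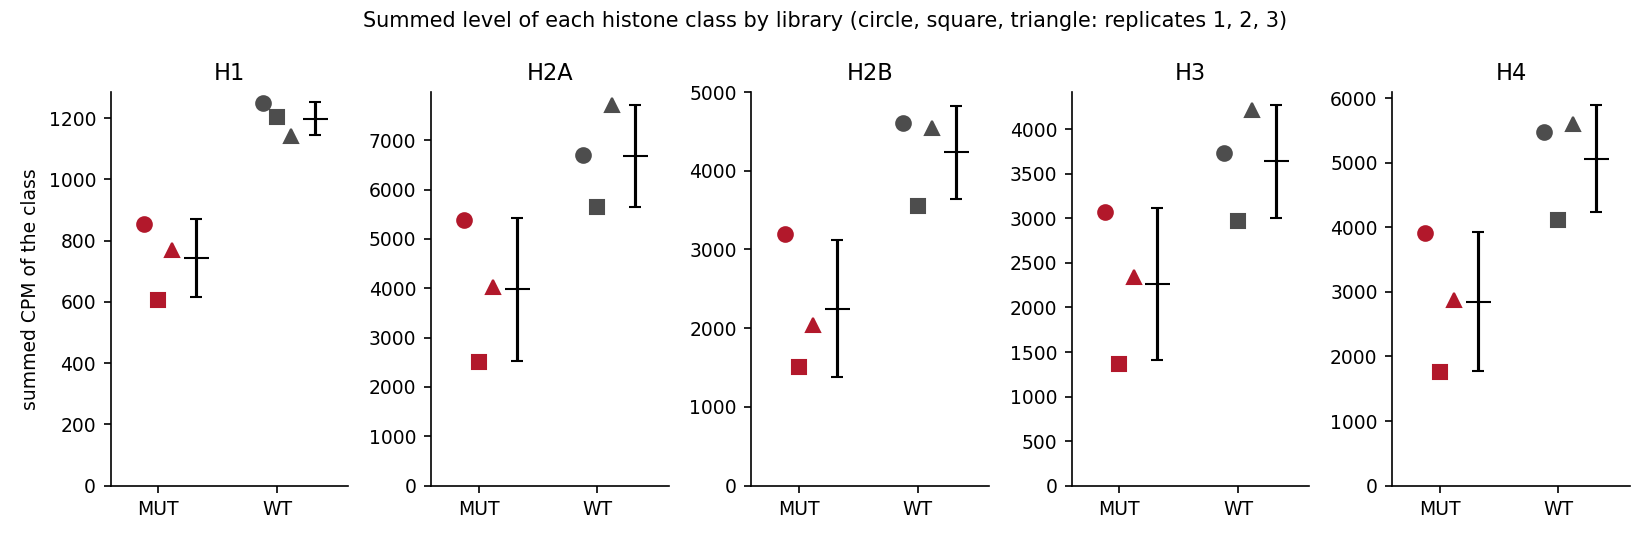
Each panel shows the summed TMM-scaled CPM of 1 histone class in the 3 MUT and 3 WT libraries, with the replicate number given by the marker shape and the mean ± SD to the right of each group. MUT replicate 2 (square) is the lowest library in every panel, and H3 is the class in which the groups overlap, at 3069 CPM in MUT replicate 1 and 2966 CPM in WT replicate 2.

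Gene by gene, edgeR's quasi-likelihood test called 1 of the 51 tested members at an adjusted p under 0.05. It was lower in MUT, as were 0.925% of all genes tested. At an unadjusted p under 0.05, 38 of the 51 were lower and 1 higher, against 9.84% of all genes that were lower. DESeq2's Wald test called 37 of the 51, all lower, against 2.77% of all genes called lower. Without a low-count filter edgeR called 34 of 63 lower and 1 higher, against 1.8% of all genes lower. Without MUT replicate 2 it called 2, H2BC13 and H4C8, both lower, against 1.36% of all genes, and also 2 without MUT replicate 2 and WT replicate 1, against 1.4%. By library size alone it called 1, H3C14, higher, against 0.642% of all genes called higher. For 36 of the 51 the 3 MUT values all lay below the 3 WT values, against 13.4% of all genes tested, and for 0 of the 51 they all lay above, against 12.8%. Those 36 were 2 H1, 11 H2A, 12 H2B, 3 H3 and 8 H4 genes. The fitted log2 fold change was below 0 for 49 of the 51, against 51.3% of all genes. The median was -0.85 over the members tested and -0.01 over all genes tested, and by class it was -0.67 for H1, -0.80 for H2A, -0.88 for H2B, -0.70 for H3 and -0.87 for H4.

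Within the upper set the changes lay in a narrow band. All 42 genes had values below 0, from -1.32 to -0.54, and also by library size alone and without MUT replicate 2, whereas on the log2(TPM + 1) scale H2AC15 and H2AC18 were at 0.02 and the other 40 below 0. By CPM, MUT replicate 2 was the lowest library for 42 of the 42, at a median of 0.471 times a gene's mean over the 6 libraries. Without it the median of the upper set was -0.59. The 9 genes of chromosome 1 in the set had a median of -0.79 and the 33 of chromosome 6 one of -0.85. The 14 genes of the set that share no 50-base stretch of coding sequence with another member had a median of -0.70 and were all below 0.

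**Figure D3:**
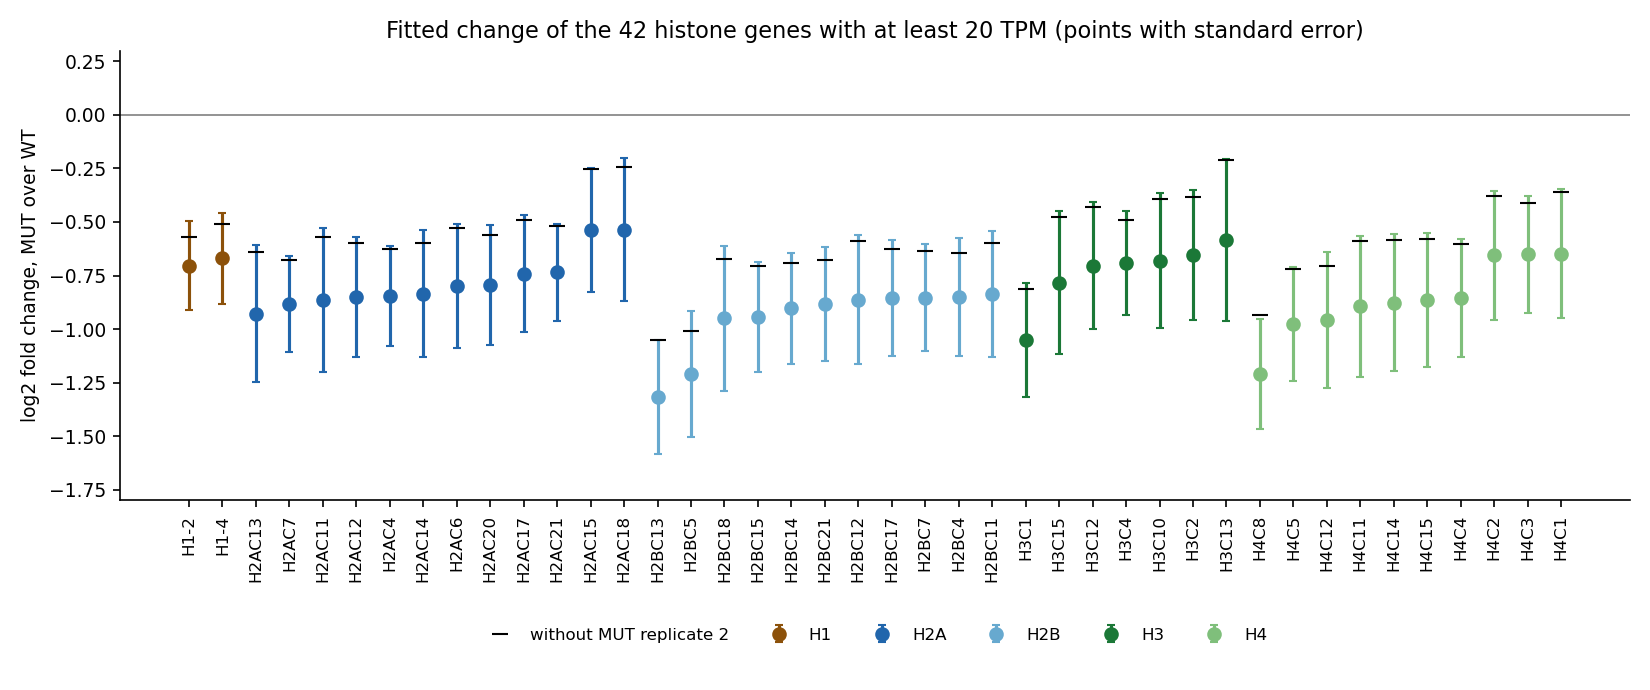
Points give the fitted log2 fold change, MUT over WT, of the 42 members with at least 20 TPM, with the standard error, coloured by class, and black ticks give the value without MUT replicate 2. All points lie between -1.32 and -0.54, H2BC13 is the lowest and every tick lies nearer to 0 than its point.

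Among the linker histones, H1-2 (chromosome 6, 26055740 to 26056470) had 475, 343 and 419 CPM in MUT libraries, against 677, 684 and 657 CPM in WT libraries. The groups were well apart, and its log2 fold change of -0.71 (SE 0.21) had an adjusted p of 0.113 in edgeR's test. H1-4 had 379, 263 and 348 CPM in MUT libraries, against 573, 520 and 483 CPM in WT libraries (-0.67, SE 0.21, adjusted p = 0.135). H1-5, the third H1 gene tested, averaged 0.518 ± 0.280 CPM in MUT and 0.460 ± 0.348 CPM in WT, where no difference was detectable at this depth (0.21, SE 0.63).

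H2AC18, the H2A gene with the most RNA, had 1436, 637 and 1182 CPM in MUT libraries, against 1467, 1330.1 and 1926 CPM in WT libraries. The groups overlapped, and its log2 fold change was -0.54 (SE 0.33, adjusted p = 0.422). H2AC11 had 762, 314 and 523 CPM in MUT libraries, against 985, 763 and 1163 CPM in WT libraries, so that its highest MUT value lay just below its lowest WT value. H2AC17 averaged 381 ± 129 CPM in MUT and 637 ± 41.3 CPM in WT, and H2AC20 327 ± 109.8 CPM in MUT and 567 ± 99.7 CPM in WT. Of the 13 H2A genes tested edgeR called 0 (adjusted p from 0.0810 to 0.422), while 10 were lower at an unadjusted p under 0.05, against 9.84% of all genes, and DESeq2 called 10 lower, against 2.77% of all genes.

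H2B held the 1 member that edgeR called with all 6 libraries, the low-count filter and TMM. H2BC13 (chromosome 6, 27807479 to 27807929), whose stem-loop and promoter are printed above, had 44.8, 20.9 and 33.0 CPM in MUT libraries, against 83.7, 66.2 and 96.0 CPM in WT libraries. All MUT libraries were below all WT libraries by a clear gap, with means of 32.9 ± 11.96 CPM in MUT and 82.0 ± 15.0 CPM in WT (SD, n = 3 each). Its log2 fold change was -1.32 (SE 0.27, adjusted p = 0.0455), and -1.05 (adjusted p = 0.0256) without MUT replicate 2. Without any 1 of the other 5 libraries it was no longer called by edgeR (adjusted p from 0.0653 to 0.151), with values from -1.61 to -1.18. In TPM it had 29.8, 29.5 and 26.1 in MUT libraries, against 46.2, 53.0 and 44.3 in WT libraries, a scale on which the MUT libraries are close together. The call was lost there (-0.73 on the log2(TPM + 1) scale, adjusted p = 0.611 in limma) and by library size alone (-0.83, adjusted p = 0.247 in edgeR). In the upper set only H2BC21, at 29.5 TPM, averaged less than H2BC13, at 38.1 TPM. By CPM, which does not allow for transcript length, H2BC13 averaged the least of the set, at 57.4, and H2BC21 averaged 243.9.

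The H2B genes with the most counts showed smaller differences. H2BC18 had 747, 305 and 443 CPM in MUT libraries, against 1040.2, 777 and 1073 CPM in WT libraries (-0.95, SE 0.34, adjusted p = 0.165). H2BC12 averaged 334 ± 124.5 CPM in MUT and 608 ± 98.4 CPM in WT, H2BC17 308 ± 105 CPM in MUT and 558 ± 65.0 CPM in WT, and H2BC4 284 ± 105.6 CPM in MUT and 512 ± 55.0 CPM in WT. None of these was called by edgeR (adjusted p from 0.132 to 0.165). H2BC5, named after its values were seen, had 189, 94.97 and 105 CPM in MUT libraries, against 373, 248 and 277 CPM in WT libraries (-1.21, SE 0.29, adjusted p = 0.0711).

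The H3 class had the weakest separation, with 3 of 10 tested genes free of overlap, all lower in MUT, against 13.4% of all genes. Of the 7 H3 genes in the upper set 1 was free of overlap, near the share over all genes. H3C15 had 784, 323 and 604 CPM in MUT libraries, against 1102, 778 and 1066 CPM in WT libraries, so that MUT replicate 1 lay above WT replicate 2. H3C2 averaged 475 ± 172 CPM in MUT and 748 ± 134.6 CPM in WT, and H3C10 380.1 ± 146 CPM in MUT and 609 ± 128 CPM in WT. H3C13 had 517, 163 and 401 CPM in MUT libraries, against 490.3, 483 and 645 CPM in WT libraries, so that MUT replicate 1 exceeded 2 of the WT libraries. Their log2 fold changes ran from -0.78 to -0.58, and edgeR called 0 of the 10 tested H3 genes, while 6 were lower and 1 higher at an unadjusted p under 0.05, against 9.84% of all genes lower, and DESeq2 called 6 lower, against 2.77% of all genes.

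In the H4 class, H4C12 had 606, 280 and 402 CPM in MUT libraries, against 991, 625 and 886 CPM in WT libraries, without overlap (-0.96, SE 0.32, adjusted p = 0.147). H4C11 averaged 367 ± 153 CPM in MUT and 681 ± 117 CPM in WT, H4C15 353 ± 142 CPM in MUT and 642 ± 104 CPM in WT, and H4C2 415 ± 152 CPM in MUT and 654 ± 108 CPM in WT. H4C8 (chromosome 6, 26285126 to 26285534), named after its values were seen, had 50.3, 23.9 and 42.0 CPM in MUT libraries, against 84.6, 79.6 and 104 CPM in WT libraries. It just missed the threshold at -1.21 (SE 0.26, adjusted p = 0.0522) and passed it without MUT replicate 2 (-0.93, adjusted p = 0.0266). It borders the run of 10 low genes on chromosome 6 and had the least RNA of the 10 H4 genes of the upper set.

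Near-identical copies limit what single members show. Over all pairs in a class, the median identity of coding DNA was 73.7% in H1, 85.0% in H2A, 89.2% in H2B, 85.3% in H3 and 83.3% in H4. In 4 pairs the coding sequences were identical, namely H2AC18 with H2AC19, H3C14 with H3C15, H4C11 with H4C12 and H4C14 with H4C15. The pairs H3C14 with H3C15 and H4C14 with H4C15 also shared an identical transcript model. Of the 65 members, 31 shared no 50-base stretch of coding sequence with another member and 8 shared every one.

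How the estimated counts treated these pairs differed. H4C14 and H4C15 received nearly equal counts, with 36783 and 37170 in MUT replicate 1 and 47730 and 48163 in WT replicate 1. H3C14 and H3C15 were divided unequally. H3C14 had 23, 5900 and 0 counts in MUT libraries, against 31, 0 and 0 in WT libraries, while H3C15 had 58890, 31458 and 36049 counts in MUT libraries, against 76113, 58217 and 46056 in WT libraries. The fitted value for H3C14 of 6.95 (SE 2.37, adjusted p = 0.153) thus came from MUT replicate 2 alone, and was 0.04 without that library. The pair summed to 785, 384 and 604 CPM in MUT libraries, against 1103, 778 and 1066 CPM in WT libraries. H2AC19 received 0, 6 and 0 counts in MUT libraries and 0, 0 and 128 in WT libraries, while its copy H2AC18 had at least 62047 in each.

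Annotated spans also overlapped, with H4C15 spanning H2AC19 and H3C15, H3C4 spanning H2AC7, and H2BC12 spanning H4C9. Whether the counting used strand is not given in the sources used here. H3C4 and H2AC7 averaged 128 ± 34.7 and 147 ± 40.3 CPM in MUT, against 206 ± 41.6 and 271 ± 16.2 CPM in WT, and reads of such pairs may not be told apart.

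The size of the difference depended on the scaling. By library size alone the median over the members tested was -0.37 while that of all genes lay at 0.54, and on the log2(TPM + 1) scale the values were -0.28 and 0.36. The histone median thus lay 0.91 and 0.65 below that of all genes on those scales, and 0.83 below it with TMM. The TPM scale covers 43 members and 2853 genes, against 51 and 14808 on the other 2. With a pseudocount of 0.1 in place of 1 the TPM gap was 0.78. By class, the medians on the log2(TPM + 1) scale were -0.08 for H1, -0.25 for H2A, -0.31 for H2B, -0.16 for H3 and -0.33 for H4. By summed TPM, the members had 10146, 9988 and 8819 in MUT libraries, against 11195, 12949 and 9993 in WT libraries. These overlapped, with MUT replicate 1 above WT replicate 3. On this scale MUT replicate 3 was the lowest library for 31 of the 42 upper genes and WT replicate 2 the highest for 39, so the library that stood out differed between scales. Of the 42, 15 did not overlap between the groups in TPM, all lower in MUT, against 1.05% of the 2853 genes tested on that scale. Among them were H2BC13 and H4C8.

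As a share of the counts of protein-coding genes, the members took 9.06%, 4.55% and 7.37% in MUT libraries, against 11.2%, 8.20% and 11.2% in WT libraries. MUT replicate 1 lay above WT replicate 2, so the groups overlapped there too. The part of scaling, and of the RNA composition of MUT replicate 2, in the histone difference was not tested.

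**Figure D4:**
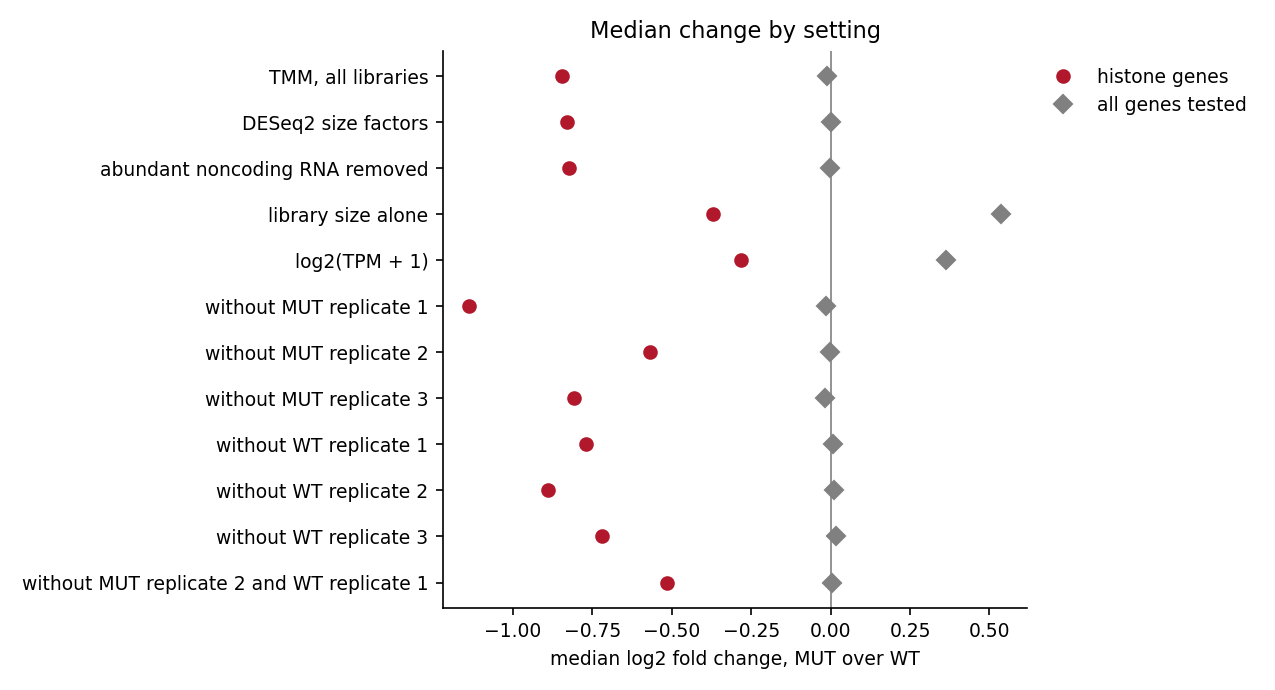
Circles give the median log2 fold change, MUT over WT, of the histone genes tested under each setting, and diamonds that of all genes tested. The histone median lies left of the all-gene median in every setting shown, nearest to 0 at -0.28 on the log2(TPM + 1) scale, where the all-gene median is 0.36.

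The make-up of histone RNA by class, which no library scaling touches, overlapped between the groups in every class by TPM. H2A took 31.4% ± 0.32 of histone TPM in MUT and 30.5% ± 1.18 in WT, and H4 took 29.7% ± 0.55 in MUT and 30.6% ± 0.95 in WT (SD, n = 3 each). H3 took 17.6% ± 0.97 in MUT and 16.4% ± 0.58 in WT. H2B took 18.2%, 18.3% and 15.9% in MUT libraries, against 19.7%, 19.1% and 18.2% in WT libraries, and H1 took 3.10%, 4.75% and 3.80% in MUT libraries, against 3.40%, 4.12% and 2.92% in WT libraries. The differences in mean share, MUT minus WT, were -1.55 percentage points for H2B and 1.12 for H3, each larger than the SD of either group, and were not tested. As a share of histone counts, which give longer transcripts more weight, H2B took 19.5%, 19.4% and 16.9% in MUT libraries, against 21.2%, 20.3% and 19.6% in WT libraries. There the groups did not overlap, by a narrow margin, while those of the other 4 classes did.

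**Figure D5:**
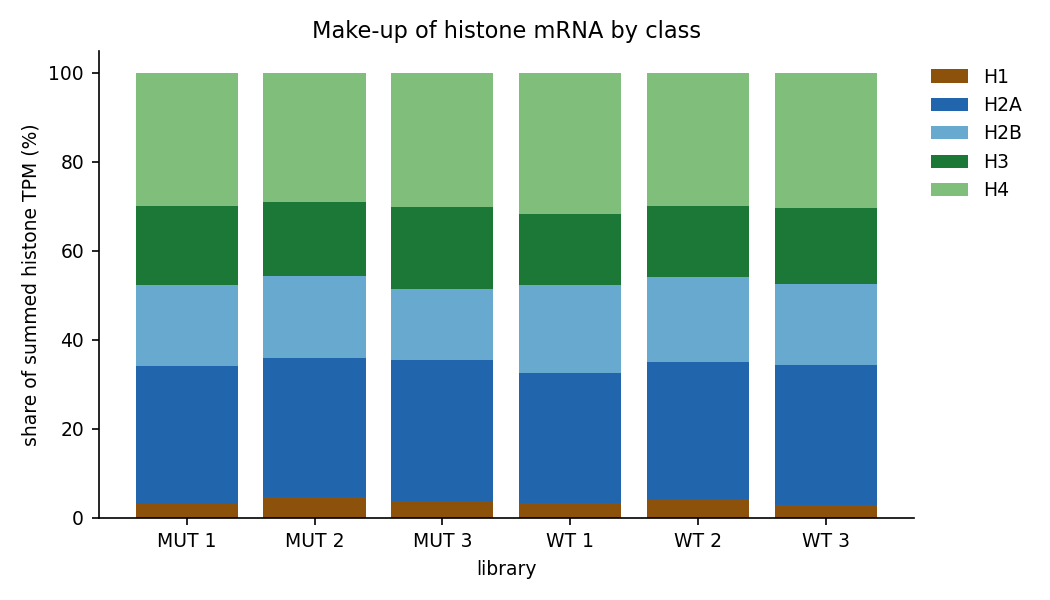
Stacked bars give the share of each class in the summed histone TPM of each library, in percent. H2A and H4 each take close to 30% in all 6 libraries, and H1 takes from 2.92% to 4.75%.

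Genes that act on histone genes and their mRNAs had medians near 0 under TMM scaling. Of 17 tested factors of histone gene transcription 0 were called by edgeR or by DESeq2 (median -0.09). In edgeR 3 of the 17 had an unadjusted p under 0.05 in either direction. The share of all genes at hand, 9.84%, counts only those that were lower, so it is not a like comparison. The list holds NPAT, the histone locus body factor that activates these genes, at -0.09 (SE 0.16, adjusted p = 0.805). Of 27 tested genes for histone mRNA processing and decay (median -0.04) 8 had an unadjusted p under 0.05 in edgeR, in either direction. Here too no share of all genes in both directions is given, so an excess cannot be read from this count. The same 1 gene was called by edgeR and by DESeq2, higher in MUT, against 0.986% of all genes called higher by edgeR. That gene was CSTF2, a cleavage stimulation factor, with 3.36, 5.01 and 3.20 CPM in MUT libraries, against 1.72, 2.004 and 2.18 CPM in WT libraries (0.98, SE 0.20, adjusted p = 0.0455). By library size alone, where the median of all genes was 0.54, CSTF2 stood at 1.59 and was not called (adjusted p = 0.0561). SLBP averaged 13.2 ± 0.43 CPM in MUT and 13.5 ± 1.08 CPM in WT (-0.04, SE 0.11), and UPF1 2.80 ± 0.20 CPM in MUT and 2.60 ± 0.34 CPM in WT. ERI1 averaged 2.82 ± 0.87 CPM in MUT and 4.42 ± 0.76 CPM in WT (-0.65, SE 0.23, adjusted p = 0.160), and passed without MUT replicate 2 (-0.88).

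Of 23 tested histone chaperones and assembly factors (median 0.06) 5 had an unadjusted p under 0.05 in edgeR, in either direction. That count has no matching share over all genes beside it, so an excess cannot be read from it. The same 1 gene was called by edgeR and by DESeq2, lower in MUT, against 0.925% and 2.77% of all genes. RBBP4, a histone-binding subunit of the CAF-1 assembly complex and of other chromatin complexes, averaged 8.82 ± 0.56 CPM in MUT and 13.2 ± 0.34 CPM in WT (-0.59, SE 0.11, adjusted p = 0.0355). By library size alone, where the median of all genes was 0.54, RBBP4 stood at -0.05 (adjusted p = 0.928). Of 10 tested genes of the replication fork checkpoint 0 were called by edgeR or by DESeq2 (median -0.09). In edgeR 1 of the 10 had an unadjusted p under 0.05 in either direction, again a count without a matching share over all genes. Of 32 tested S-phase and replication genes 26 had values below 0, against 51.3% of all genes (median -0.22). In edgeR 13 of the 32 had an unadjusted p under 0.05 in either direction. Of all genes 9.84% were lower at that p, a share that leaves out higher genes and so does not measure an excess. After adjustment edgeR called 1, lower in MUT, against 0.925% of all genes. DESeq2 called 2, CDT1 and TK1, both lower, against 2.77%. By library size alone, where the median of all genes was 0.54, 1 of the 32 had a value below 0, against 9.49% of all genes, and 27 lay below that median (list median 0.34). The gene that edgeR called was the licensing factor CDT1, with 23.0 ± 5.01 CPM in MUT and 56.4 ± 7.03 CPM in WT (-1.29, SE 0.18, adjusted p = 0.0165). By library size alone CDT1 stood at -0.78 (adjusted p = 0.264). Summed by TMM-scaled CPM, the S-phase list had 328, 361 and 334 CPM in MUT libraries, against 423, 447 and 462 CPM in WT libraries, without overlap. In summed TPM it had 43.1, 101.1 and 51.2 in MUT libraries, against 46.1, 71.5 and 42.0 in WT libraries. There MUT replicate 2 was the highest and the groups overlapped. The part of S-phase content in the histone values was not tested.

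The list of replacement histone genes, whose mRNAs are mostly polyadenylated and made outside S phase too, gave 2 of 11 tested genes called by edgeR. Both were lower in MUT, against 0.925% of all genes (median -0.39, and 0.16 by library size alone). DESeq2 called 3, H2AZ1, H2AZ2 and H1-10, all lower, against 2.77% of all genes. In edgeR 8 of the 11 had an unadjusted p under 0.05 in either direction. Of all genes 9.84% were lower at that p, a share without the higher genes, so it is not a like comparison. H2AZ2, a variant H2A, averaged 24.7 ± 1.09 CPM in MUT and 38.0 ± 2.22 CPM in WT (-0.62, SE 0.11, adjusted p = 0.0319), but stood at -0.08 by library size alone (adjusted p = 0.899) and at -0.0075 on the log2(TPM + 1) scale. H1-10, a linker variant, averaged 8.19 ± 0.57 CPM in MUT and 11.9 ± 0.26 CPM in WT (-0.54, SE 0.11, adjusted p = 0.0437), but stood at -0.0073 by library size alone (adjusted p = 0.990) and at 0.054 on the log2(TPM + 1) scale. On those scales the median of all genes was 0.54 and 0.36. Of the replacement genes tested, 9 of 11 and 8 of 9 lay below it, as did 9 of 11 with TMM. H2AX, whose transcript can end at a stem-loop or a poly(A) tail, had 166, 56.4 and 137 CPM in MUT libraries, against 224, 173 and 244 CPM in WT libraries. MUT replicate 2 was its lowest library, as for the replication-dependent genes, and the summed list stood at 545, 452 and 509 CPM in MUT libraries, against 701, 708 and 762 CPM in WT libraries. In summed TPM the list had 97.8, 184.7 and 106.9 in MUT libraries, against 106.1, 162.3 and 98.4 in WT libraries, and the groups overlapped.

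Leaving out any 1 of the 5 libraries other than MUT replicate 2 ended edgeR's calls of CSTF2, RBBP4, CDT1, H2AZ2 and H1-10 (adjusted p from 0.0502 to 0.167), and H1-10 also missed the threshold without MUT replicate 2 (adjusted p = 0.0502).

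RefSeq now counts 3 further genes of the table, H2AW, H2BU1 and H4-16, among the replication-dependent families, under other symbols, so the naming rule left them out. H2AW averaged 54.6 ± 18.9 CPM in MUT and 96.7 ± 19.6 CPM in WT, H2BU1 97.7 ± 35.7 CPM in MUT and 189 ± 31.6 CPM in WT, and H4-16 23.5 ± 10.1 CPM in MUT and 54.6 ± 9.51 CPM in WT. Their log2 fold changes of -0.83, -0.95 and -1.22 lay within the range of the members, and edgeR called none of them (adjusted p = 0.136, 0.103 and 0.0705).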

How the data were processed

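Total RNA of 3 MUT and 3 WT HCT116 libraries was sequenced, per the labels. The authors deposited expected counts and TPM per gene symbol. Tools listed in the submitters' processing notes, without roles, were RSEM 1.2.28, STAR 2.5.2b, DESeq2 1.42.0 and FastQC 0.12.1, with build hg38 (GRCh38). The deposited expected counts were already whole (0 were not), so rounding changed none. RSEM-type estimates divide reads among copies that match equally well.

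In R 4.3.3, edgeR 4.0.16 kept genes by filterByExpr (minimum count 10), scaled them by TMM and tested MUT over WT by quasi-likelihood, with no covariate and Benjamini-Hochberg adjustment over all genes at 0.05. The SE is the log2 fold change over the root of F. CPM are TMM-scaled. The deposited TPM, normalised by the authors for length and depth, were tested in limma 3.58.1 after log2(TPM + 1), with at least 1 TPM in 3 libraries. Alternatives were a pseudocount of 0.1, DESeq2's size factors and Wald test, library size alone, removal of abundant noncoding RNA, no low-count filter, the replicate block and leaving out libraries. The procedure was run on simulated counts, drawn independently for each gene. That run does not cover genes that vary together or reads divided among copies. Libraries of a group differed beyond sampling noise.

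Coordinates and promoters came from RefSeq GRCh38.p14, transcripts from GENCODE v29. The text names members that passed, the 4 per class with the most counts, passing genes of each list, and EIF6, SLBP, NPAT, ERI1 and UPF1. Members and lists were chosen with earlier results of these data known.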

Additional observations from a re-analysis of the deposited data

How the results depend on the processing

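The values below 0 of the histone genes held under every alternative run for their median and sum, while the number of members called did not. Of 51 members tested, 1 was called by edgeR and 37 by DESeq2's Wald test. Without a low-count filter 35 of 63 were called, on both TPM scales 0 of 43, with 1 library left out 0 to 2 of 52 to 56, and without both MUT replicate 2 and WT replicate 1 it was 2 of 55. Library size alone also gave 1, but this was H3C14, higher. Over all genes 283 were called, 760 by DESeq2, 1195 without a filter, 108 by library size alone, 10 on log2(TPM + 0.1), 21 on log2(TPM + 1) and 27 to 442 with 1 library left out. The replicate number as a block called 9 members and 296 genes. After each gene's group mean of log CPM was subtracted, same-numbered libraries correlated at -0.29, -0.04 and 0.22. Differently numbered libraries correlated at -0.32 to 0.37. Deviations within a group of 3 sum to 0, so these values cannot decide whether the numbers pair the samples. The histone median of -0.85 became -0.37 by library size alone, -0.28 on both TPM scales and -1.14 to -0.57 with 1 library left out, and the log2 ratio of the sums of -0.79 became -0.31 by library size alone, -0.24 in TPM and -1.07 to -0.53 with 1 library left out. The MUT minus WT differences in class share moved by less than the spread between libraries under every alternative run for them. The sign turned for H1-10 (0.073 on log2(TPM + 0.1), 0.054 on log2(TPM + 1)), EIF6 (0.19, 0.18 and 0.089 by library size alone), SLBP (0.56, 0.40 and 0.50) and H2AC18 (0.0216 and 0.0215 in TPM), and for NPAT by library size alone (0.46). With libraries left out H1-5 ran from -0.22 to 0.89 and SLBP from -0.072 to 0.062. Of the 438 values of named genes under alternatives, 351 stayed on the same side of the threshold with the same sign, 25 newly passed, 48 no longer passed and 14 turned. The causes were not tested. Members under about 1 CPM rest on few counts, and single copies of identical pairs on the division of reads.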
